A study of Homo sapiens with 12 samples.

Results

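Cells can hold an epithelial state, with E-cadherin junctions and keratins, or a mesenchymal state, with vimentin filaments, N-cadherin and a fibronectin matrix. The passage between these states is driven by transcription factors of the SNAIL, ZEB and TWIST families, which bind E-box motifs and, in the case of SNAIL and ZEB proteins, repress the E-cadherin gene. Many ovarian carcinoma cells sit between the 2 states, and the state is known to affect how they detach and spread over the peritoneum. The 10 genes described here stand for this system and were chosen by name among the 58735 genes of the count table: the cadherins CDH1 and CDH2, the intermediate filament gene VIM, the matrix gene FN1, and the factors SNAI1, SNAI2, ZEB1, ZEB2, TWIST1 and TWIST2. CDH1 was too low to read, SNAI1 was tested but lay near 1 CPM (a count scaled to the size of its library), and the other 8 were well measured.

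The libraries came from FDX2-iKO ES2 cells. ES2 is an established human ovarian cancer line, and FDX2 is a mitochondrial ferredoxin that carries electrons for the assembly of iron-sulfur clusters. In these cells the endogenous FDX2 gene had been knocked out by Cas9, and FDX2 was supplied by a genome-editing-resistant, HA-tagged FDX2 cDNA under the TRE promoter, switched on by doxycycline (Doxy) through rtTA and silenced by tTS without it. All 4 conditions thus carried the same knockout, the same transgene and the same regulators, and differed in Doxy and oxygen. The conditions were 20% O2 + Doxy, 20% O2 wo Doxy (both for 6 days), 3% O2 + Doxy and 3% O2 wo Doxy (3 days at 3% O2 after 4 days at 20% O2), with 3 libraries each and 12 in all. A response to Doxy withdrawal is called FDX2 loss here. The effect of the drug itself and the effect of FDX2 cannot be told apart, since no line without the transgene was analysed here. Clones were isolated by limiting dilution, and per the study's methods clone #1 was used where no other is named, so that the line stands for a single clone. The study describes the libraries as biological replicates, and neither it nor the labels say how their cultures were separated.

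Totals lay between 24958386 and 34313637 counts per library. FDX2 had only 13, 26, 18 and 19 counts summed over the 3 libraries of 20% O2 + Doxy, 20% O2 wo Doxy, 3% O2 + Doxy and 3% O2 wo Doxy, which is too few to check the labels. Other genes on the same strand cover 70.9% of the exonic bases of FDX2, and how reads in such overlaps were counted is not stated. These counts may therefore not give the level of its RNA. The libraries also differed in how counts depended on GC content. The trend of log2 expression from transcripts of 40% to those of 57% GC ran between -0.24 and 0.27 in the 20% O2 + Doxy libraries, between -0.25 and -0.13 at 20% O2 wo Doxy, between -0.10 and 0.34 at 3% O2 + Doxy, and between 0.06 and 0.29 at 3% O2 wo Doxy. The 3 highest values were those of 3% O2 + Doxy replicate 3, 3% O2 wo Doxy replicate 2 and 20% O2 + Doxy replicate 1. Among the members, VIM, TWIST1, TWIST2 and SNAI1 are GC-rich (54.1% to 58.2% of the principal transcript), whereas ZEB2, ZEB1 and SNAI2 are GC-poor (39.2% to 41.8%). Results were therefore repeated with this trend removed. The corrected value stands beside a member where it changed the call, and the corrected counts of the gene lists follow the lists.

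Mesenchymal and epithelial marker genes were both found in part in the ES2 libraries. Per length, in CPM per kilobase of the principal transcript at 20% O2 + Doxy, VIM had 1400 ± 116 (SD, n = 3), FN1 83.8 ± 4.20, SNAI2 46.2 ± 2.65, TWIST2 22.9 ± 3.98, TWIST1 14.1 ± 3.04, CDH2 12.9 ± 1.01, ZEB1 10.7 ± 0.756, ZEB2 4.73 ± 0.210 and SNAI1 0.577 ± 0.241. CDH1 had no count in these 3 libraries. This order of levels was the same in the other 3 conditions apart from TWIST1 and CDH2, which changed places without Doxy. These were also the only neighbours in the order whose libraries overlapped, in 3 of the 4 conditions. Of 24 further genes of the mesenchymal cytoskeleton and surface, MYL9, POSTN, LUM, DCN and DES stayed at 3 counts or fewer in every library. Also near 0 at 20% O2 + Doxy were ACTA2 (0.425 ± 0.116 CPM) and TAGLN (0.293 ± 0.0890), genes of contractile cells, NES (0.229 ± 0.0452), THY1 (0.0325 ± 0.00346) and PDGFRB (0.171 ± 0.0239). S100A4 (0.779 ± 0.0972) and CNN1 (0.840 ± 0.173) lay below 1 CPM there too. Others were abundant, such as CD44 (808 ± 22.5 CPM), AXL (682 ± 55.1) and SPARC (351 ± 1.17). Of the epithelial markers, KRT7 (577 ± 91.9 CPM at 20% O2 + Doxy) and KRT18 (566 ± 94.3) were abundant keratin genes. Of 17 genes of the epithelial surface and keratins, however, 9 stayed at 3 counts or fewer in every library. Among these were the keratins KRT5, KRT14, KRT17 and KRT19. EPCAM, an epithelial adhesion gene, had at most 3 counts in any library, and GRHL2, an activator of epithelial genes, had no count at all. Of the markers of Mullerian and ovarian epithelium, 7 of 12, among them MUC16, EPCAM, SOX17, FOLR1, WFDC2 and EMX2, stayed at 3 counts or fewer in every library, and PAX8 lay at 8.32 ± 1.30 CPM. PAX8 and KRT7 were the only ones of these 12 markers to pass the filter, and the labelled origin of the line is not settled by these data. Of 16 markers of other cell types, 6 were at 3 counts or fewer in every library, among them the leukocyte genes PTPRC and CD3E. Their summed level lay between 1336 and 1988 CPM at 20% O2 + Doxy, 1154 and 1224 at 20% O2 wo Doxy, 1424 and 2072 at 3% O2 + Doxy, and 1936 and 2549 at 3% O2 wo Doxy. Most of it was COL1A1, the type I collagen gene, which mesenchymal cells also express (1510 ± 353, 1114 ± 39.7, 1579 ± 354 and 2119 ± 305 CPM in the same order), and its part in the results below was not tested. In bulk RNA, fewer cells of one kind and less RNA per cell cannot be told apart.

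**Figure D1:**
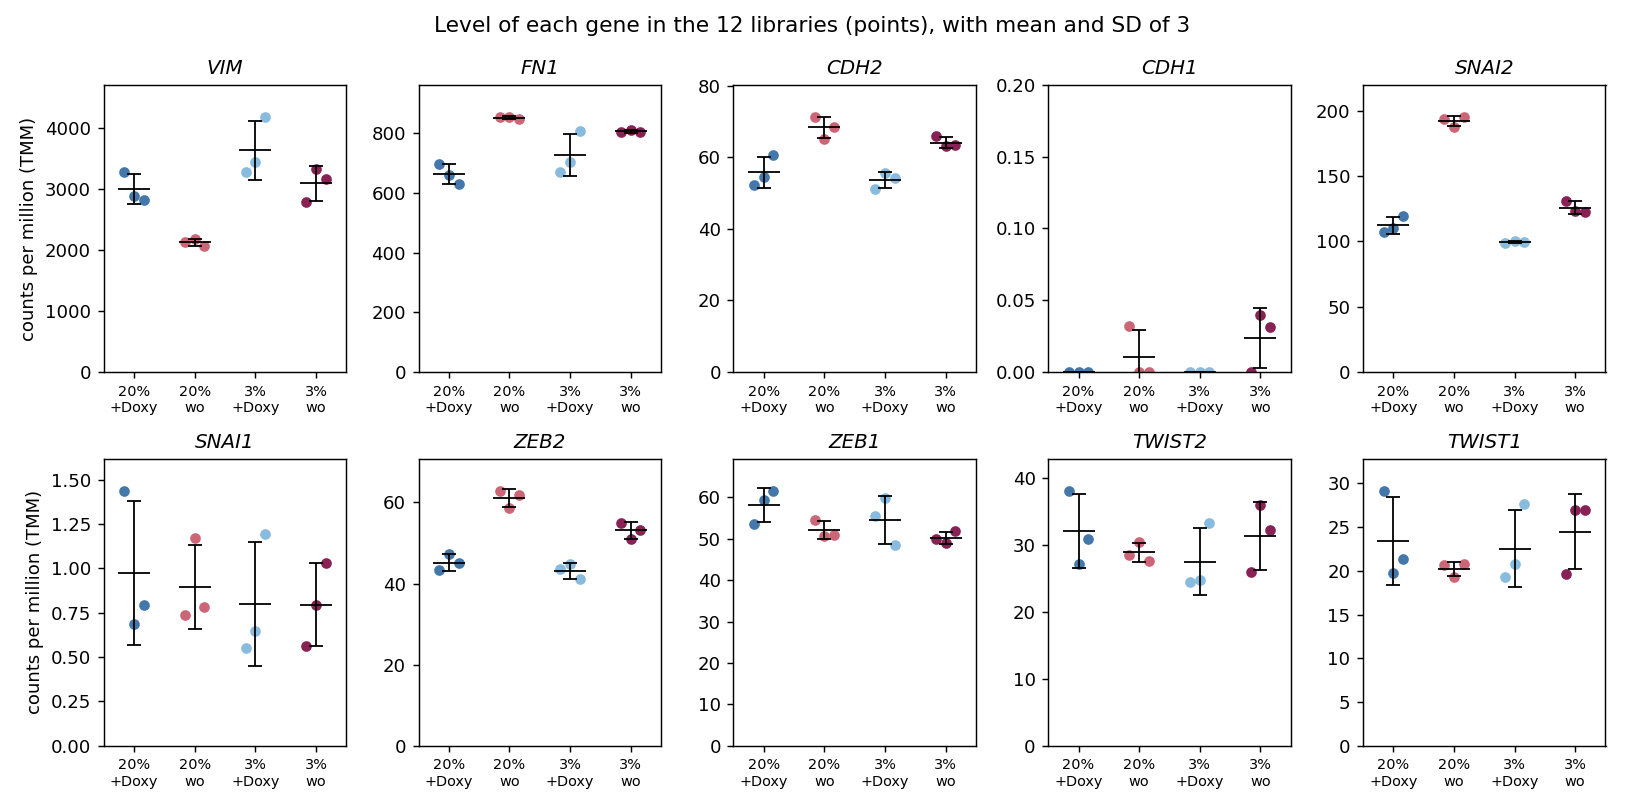
Levels of the 10 genes in the 12 libraries, in TMM-scaled CPM on a linear axis from 0, with 1 point per library and the mean and SD of 3 libraries per condition. SNAI2, ZEB2 and CDH2 without Doxy stood above their Doxy controls at either oxygen level without overlap, whereas CDH1 stayed at 0 or 1 count in each library.

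The first comparison was withdrawal of Doxy at 20% O2. Of the 9 members that could be tested, 5 changed: SNAI2, ZEB2, FN1 and CDH2 rose and VIM fell. SNAI2 rose most, by 0.78 on the log2 scale or 1.71-fold. Among all 16891 genes tested, 35.3% changed in this comparison, 17.6% higher and 17.7% lower, so that a call by itself was common here. The median log2 fold change of the 9 members was -0.12, and that of all genes 0.01. Each adjusted p comes from edgeR's quasi-likelihood test, adjusted by the Benjamini-Hochberg method over all genes tested, and a gene counted as changed below 0.05.

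SNAI2, on chromosome 8, encodes SLUG, a zinc-finger repressor of the SNAIL family. Its level was 107, 110 and 119 CPM in the libraries of 20% O2 + Doxy and 193, 188 and 195 CPM in those of 20% O2 wo Doxy. Every library without Doxy lay far above every library with it. The log2 fold change was 0.78 (SE 0.05, adjusted p = 1.66e-06, edgeR's quasi-likelihood test). SNAI1 (chr20:49982999-49988886, plus strand of GRCh38, as for all positions of genes here), which encodes SNAIL itself, is also held down by rapid turnover of its protein, which RNA does not show. It had 45, 19 and 27 counts with Doxy and 23, 37 and 24 without, and these ranges overlapped. Its log2 fold change of -0.12 had an SE of 0.38 and a 95% interval that reached up to 0.76, so that all but a large rise lay within the counting and replicate error at this depth. There were 74.4 to 160 SNAI2 counts per SNAI1 count with Doxy and 161 to 262 without.

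ZEB1 (chr10:31318495-31529814, plus strand) and ZEB2 (chr2:144364364-144524583, minus strand) are paired zinc-finger homeodomain repressors with closely related targets. ZEB2 had 43.2, 47.3 and 45.0 CPM with Doxy and 62.9, 58.7 and 61.9 CPM without, again with no overlap, and rose by 0.44 (SE 0.06, adjusted p = 0.000153, edgeR). ZEB1 had 53.7, 59.4 and 61.6 CPM with Doxy and 54.5, 50.6 and 50.9 CPM without. The ZEB1 ranges overlapped through one library of each condition, and its log2 fold change of -0.16 (SE 0.08, adjusted p = 0.137, edgeR) was not called. With the GC trend removed, ZEB1 was called lower (-0.17, adjusted p = 0.00745, edgeR). The ratio of ZEB2 to ZEB1 counts within a library, which needs no scaling between libraries, was 0.730 to 0.806 with Doxy and 1.15 to 1.22 without. Thus ZEB1 was the more counted paralog in each library with Doxy and ZEB2 in each library without it. These are raw counts, and the principal transcript of ZEB2 is longer (9541 against 5423 bases). Per kilobase, ZEB1 stayed above ZEB2 without Doxy as well (9.59 against 6.41 CPM), so only the ratio moved. Genes on the opposite strand cover 4.23% of the exonic bases of ZEB1 (ZEB1-AS1) and 5.18% of those of ZEB2 (ZEB2-AS1 and 2 unnamed genes), and the strand setting of the counting is not stated.

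The miR-200 family is the best known brake on both ZEB genes, and ZEB proteins repress the miR-200 loci in turn. The 5 mature family members are shown because they fall into 2 seed groups with separate sites in the ZEB transcripts. Capitals mark the seed, bases 2 to 8, and the sequences are those of RefSeq on GRCh38.p14. The first 3 share the seed AAUACUG and the last 2 the seed AACACUG.
hsa-miR-200b-3p: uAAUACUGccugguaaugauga
hsa-miR-200c-3p: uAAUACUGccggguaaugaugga
hsa-miR-429: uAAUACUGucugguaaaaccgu
hsa-miR-200a-3p: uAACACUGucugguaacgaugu
hsa-miR-141-3p: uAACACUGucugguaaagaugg
In the principal GENCODE transcript of ZEB1, the 3' UTR of 1938 bases held 5 matches to the first seed group (CAGTATT) and 3 to the second (CAGTGTT). In that of ZEB2, the 3' UTR of 5370 bases held 5 and 4. The first match of each kind is shown with 8 bases on either side and the match in capitals.
ZEB1 site for CAGTATT: tatcttatCAGTATTatcactct
ZEB1 site for CAGTGTT: atcagaatCAGTGTTtgtgattg
ZEB2 site for CAGTATT: ccatacatCAGTATTtttattat
ZEB2 site for CAGTGTT: attttgtaCAGTGTTaaggccta
A seed match is a description of the letters and not a measured site, and mature miRNAs were not measured in these poly(A) libraries. MIR200CHG, the host transcript of hsa-miR-200c and hsa-miR-141, had 0 counts in all 12 libraries, which allows a level of up to 0.0882 to 0.121 CPM depending on the library. The ZEB transcripts were thus present with no detectable host transcript, and this held with and without Doxy.

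TWIST1 (chr7:19020991-19117672, minus strand) and TWIST2 (chr2:238848032-238910543, plus strand) encode bHLH factors that act as dimers with E proteins. TWIST1 had 29.2, 19.7 and 21.3 CPM with Doxy and 20.6, 19.3 and 20.7 CPM without, and TWIST2 had 38.2, 27.2 and 31.0 CPM and 28.6, 30.4 and 27.7 CPM. In both genes the ranges overlapped and 20% O2 + Doxy replicate 1, one of the 3 libraries with the highest GC trend, stood above the rest. The log2 fold changes were -0.21 (SE 0.18) for TWIST1 and -0.15 (SE 0.16) for TWIST2, neither of them called. With the GC trend removed they were -0.05 and -0.00257.

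Among the structural genes, VIM and FN1 moved in opposite directions. VIM (chr10:17228259-17237593, plus strand) encodes the class III intermediate filament protein of mesenchymal cells and had 3274, 2875 and 2819 CPM with Doxy and 2131, 2176 and 2065 CPM without. Each library without Doxy lay below each with it, and the log2 fold change was -0.49 (SE 0.10, adjusted p = 0.00223, edgeR), or 1.41-fold lower. Exons of VIM-AS1 and a second antisense gene cover 24.4% of its exonic bases, so a part of these counts cannot be assigned to a strand. FN1 (chr2:215360440-215436172, minus strand) encodes the fibronectin of the pericellular matrix and had 696, 660 and 630 CPM with Doxy and 854, 854 and 846 CPM without. It rose by 0.36 (SE 0.06, adjusted p = 0.00118, edgeR), also without overlap. VIM per FN1 count within a library was 4.36 to 4.70 with Doxy and 2.44 to 2.55 without.

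CDH2, the N-cadherin gene (chr18:27950966-28177446, minus strand), had 52.2, 54.6 and 60.7 CPM with Doxy and 71.3, 65.3 and 68.5 CPM without. It rose by 0.29 (SE 0.06, adjusted p = 0.00460, edgeR), and the libraries did not overlap. CDH1, the E-cadherin gene (chr16:68737225-68835548, plus strand) and the classical target of the repressors above, had 3 counts in all: 1 in 20% O2 wo Doxy replicate 1, 1 in 3% O2 wo Doxy replicate 2 and 1 in replicate 3 of that condition. All of these lie under the 3 counts per library that a count of 0 allows, and no fold was computed. Hence CDH1 was at the limit of detection with and without Doxy.

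The 250 bases before the transcript start are given for FN1, ZEB2 and VIM, as members that rose and the one that fell. RefSeq promoters on GRCh38.p14 were used here for 6 of the 10 members. They were searched on both strands for CAGGTG (an E-box of SNAIL and ZEB factors), ACGTG (the core of the hypoxia response element), TGACTCA (an AP-1 site) and TGACGTCA (a cAMP response element), none of which contains another. Capitals mark the matches.
FN1 (chr2:215436069-215436318, minus strand): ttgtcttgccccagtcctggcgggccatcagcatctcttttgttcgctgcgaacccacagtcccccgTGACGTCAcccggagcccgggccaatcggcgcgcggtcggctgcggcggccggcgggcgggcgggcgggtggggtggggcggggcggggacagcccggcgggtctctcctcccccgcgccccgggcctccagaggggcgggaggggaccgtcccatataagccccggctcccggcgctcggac
ZEB2 (chr2:144520120-144520369, minus strand): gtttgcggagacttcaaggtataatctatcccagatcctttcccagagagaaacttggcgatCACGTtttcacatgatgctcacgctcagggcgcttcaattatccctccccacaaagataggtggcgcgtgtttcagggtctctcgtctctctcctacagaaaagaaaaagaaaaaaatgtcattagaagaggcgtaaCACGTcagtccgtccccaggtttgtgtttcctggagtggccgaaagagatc
VIM (chr10:17227991-17228240, plus strand): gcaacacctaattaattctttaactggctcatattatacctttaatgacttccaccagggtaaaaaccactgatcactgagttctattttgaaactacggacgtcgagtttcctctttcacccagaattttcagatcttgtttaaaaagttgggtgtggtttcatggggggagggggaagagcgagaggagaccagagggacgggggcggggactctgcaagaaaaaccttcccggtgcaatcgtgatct
FN1 held 1 TGACGTCA, 183 bases before the start, a motif present in 1.65% of all 35116 promoter windows. ZEB2 held ACGTG at 188 and at 51 bases before the start, and 18.5% of all windows hold at least one. CAGGTG is in 17.5% and TGACTCA in 4.2% of all windows. The VIM window held none of the 4 motifs, which says only that these letters are absent from it. Of the members whose windows are not shown, ZEB1 has 7 windows, of which one held CAGGTG at 57 bases before its start, another at 242 and 85 bases, and one more ACGTG at 250 and 127 bases. These were the only CAGGTG matches of the 6 members. The 2 windows of CDH2 and the window of TWIST2 held none of the 4 motifs.

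**Figure D2:**
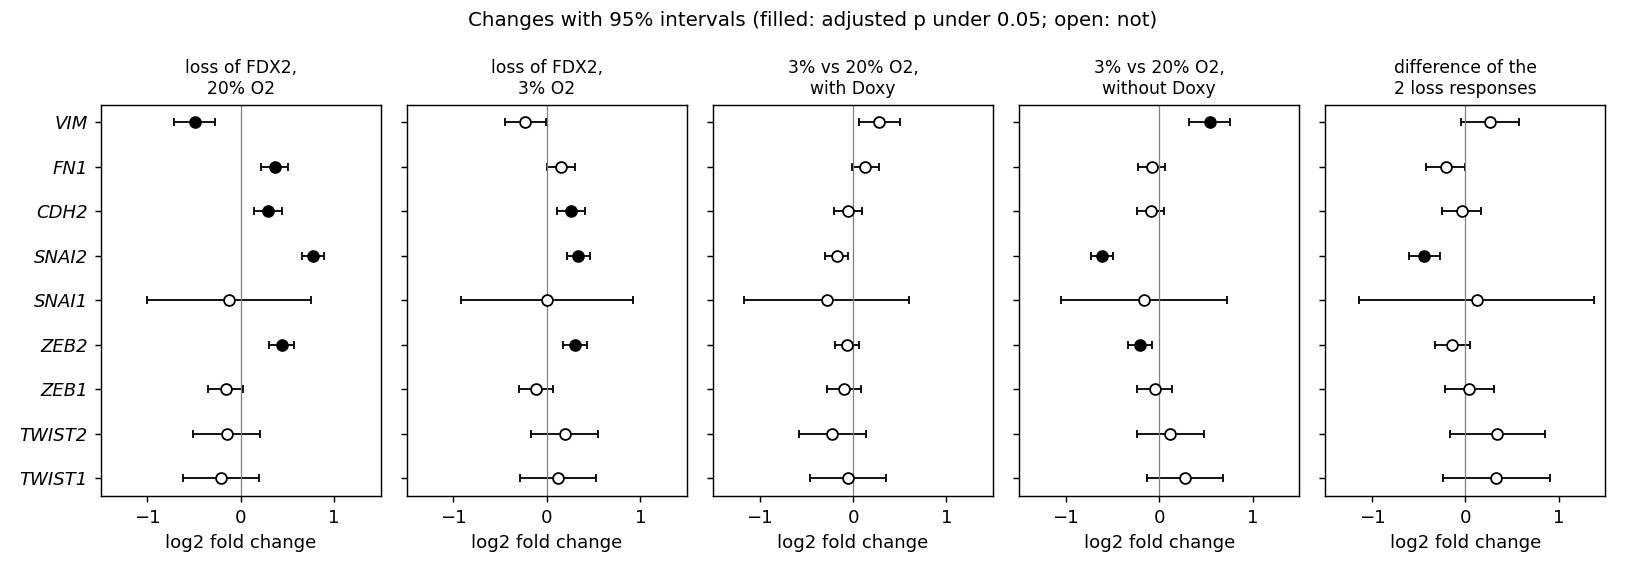
Log2 fold changes of the 9 tested genes in the 5 comparisons, with 95% intervals from edgeR's quasi-likelihood fit (filled points, adjusted p under 0.05). SNAI2 was called in 4 of the 5 comparisons, and the intervals of SNAI1, TWIST1 and TWIST2 were the widest.

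The same withdrawal at 3% O2 asked which of these changes were present under low oxygen. SNAI2, ZEB2 and CDH2 rose and no member fell, 3 of 9 in all. The background was 7.31% of all genes, with 4.20% higher and 3.11% lower. The median over the 9 members was 0.15, against 0.04 for all genes. SNAI2 had 98.9, 100 and 99.3 CPM with Doxy and 131, 123 and 123 CPM without. Its libraries did not overlap, and it rose by 0.34 (SE 0.05, adjusted p = 0.00348, edgeR), or 1.26-fold. ZEB2 had 43.5, 44.8 and 41.1 CPM with Doxy and 55.0, 51.0 and 53.3 CPM without. It rose by 0.30 (SE 0.06, adjusted p = 0.0103, edgeR), again with no overlap.

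CDH2 had 51.3, 55.7 and 54.2 CPM at 3% O2 + Doxy and 65.9, 63.1 and 63.4 CPM at 3% O2 wo Doxy, without overlap. It rose by 0.26 (SE 0.06, adjusted p = 0.0356, edgeR). This call was near the threshold. It was lost, with the direction kept, without 3% O2 + Doxy replicate 1 or 2 or any one library of 3% O2 wo Doxy (adjusted p between 0.0753 and 0.131, edgeR), and the fits that used only these 6 libraries called none of the 3 genes.

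FN1 and VIM overlapped between the conditions at 3% O2. FN1 had 669, 702 and 806 CPM with Doxy and 802, 812 and 805 CPM without, and 3% O2 + Doxy replicate 3, the library with the highest GC trend, was as high as the libraries without Doxy. VIM was highest in the same library, with 3266, 3445 and 4176 CPM with Doxy and 2776, 3328 and 3166 CPM without. Their log2 fold changes were 0.15 (SE 0.06, adjusted p = 0.180) for FN1 and -0.23 (SE 0.10, adjusted p = 0.173) for VIM in edgeR's quasi-likelihood test. With the GC trend removed, both were called, FN1 at 0.17 (adjusted p = 0.0140) and VIM at -0.24 (adjusted p = 0.00470, edgeR). Without 3% O2 + Doxy replicate 3, FN1 was called too (0.23, adjusted p = 0.0170, edgeR). VIM per FN1 count was 4.88 to 5.18 with Doxy and 3.46 to 4.10 without, and did not overlap.

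ZEB1 at 3% O2 had 55.4, 59.9 and 48.5 CPM with Doxy and 50.0, 48.9 and 51.8 CPM without, and was not called (-0.12, SE 0.08). ZEB2 per ZEB1 count was 0.748 to 0.847 with Doxy and 1.03 to 1.10 without, and did not overlap. Per kilobase, ZEB1 stayed above ZEB2 here too (9.27 against 5.56 CPM without Doxy). TWIST1 had 19.3, 20.8 and 27.6 CPM with Doxy and 19.6, 26.9 and 26.9 CPM without. TWIST2 had 24.5, 24.8 and 33.3 CPM and 26.0, 36.1 and 32.2 CPM. Both overlapped, and TWIST2 per TWIST1 count lay between 1.19 and 1.57 over all 12 libraries. SNAI1 had 17, 17 and 37 counts with Doxy and 14, 20 and 33 without, which overlapped almost fully.

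**Figure D3:**
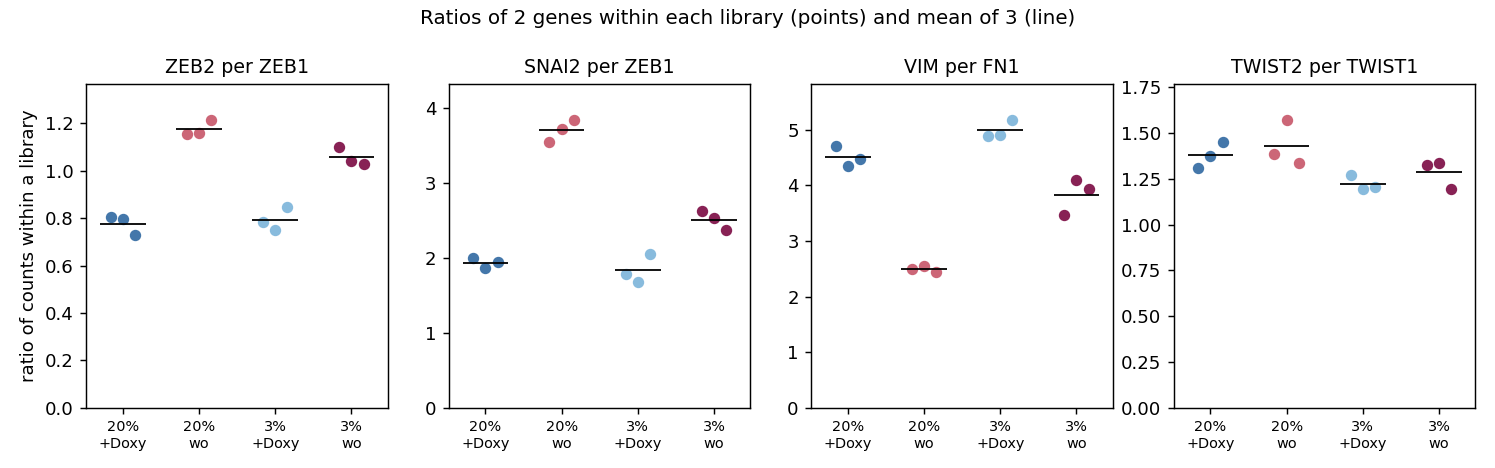
Ratios of the raw counts of 2 genes within each library (points) with the mean of 3 (line), on linear axes from 0. ZEB2 per ZEB1, SNAI2 per ZEB1 and VIM per FN1 were separated between libraries with and without Doxy at either oxygen level, and TWIST2 per TWIST1 was not.

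Whether the members responded differently to FDX2 loss at the 2 oxygen levels was tested as an interaction. Of the 9 members, SNAI2 alone was called, with a smaller response at 3% O2 (log2 difference -0.44, SE 0.07, adjusted p = 0.00582, edgeR). Over all genes 7.29% differed, 3.21% upward and 4.08% downward, with a median of 0.05 against 0.04 for the 9 members. SNAI2 per ZEB1 count moved from 1.86 to 1.99 up to 3.55 to 3.84 at 20% O2, and from 1.67 to 2.05 up to 2.36 to 2.62 at 3% O2. For ZEB2 the difference was -0.14 (95% interval -0.32 to 0.05) and for CDH2 -0.04 (-0.24 to 0.17), neither of them called. FN1 had -0.21 (adjusted p = 0.183) and VIM 0.26 (adjusted p = 0.272, edgeR). These became calls when the GC trend was removed for FN1 (-0.23, adjusted p = 0.0150, edgeR), and without 3% O2 + Doxy replicate 3 for VIM (0.38, adjusted p = 0.0489, edgeR). With the GC trend removed, the VIM difference was smaller and not called (0.16, adjusted p = 0.133, edgeR). Either gene was called in 1 of 18 refits with other settings.

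The comparisons of oxygen asked what low oxygen did in cells with and without FDX2. The 3% O2 libraries were also cultured for 7 days in all and those at 20% O2 for 6. Per the study's methods the preculture was already with or without Doxy. Cells at 3% O2 wo Doxy were thus without it for 7 days and those at 20% O2 wo Doxy for 6. Oxygen, time in culture and time without Doxy therefore cannot be told apart here or in the interaction. With Doxy, no member was called by edgeR's quasi-likelihood test. At an unadjusted p under 0.05 there were 2, VIM (0.28) and SNAI2 (-0.17), and DESeq2's Wald test called 1, SNAI2 (-0.19, adjusted p = 0.0289). The background was low as well, 2.02% of all genes, 1.63% higher and 0.385% lower, and the medians were -0.07 for the members and -0.00451 for all genes. SNAI2 had 107 to 119 CPM at 20% O2 and 98.9 to 100 CPM at 3% O2, without overlap but also without a call (adjusted p = 0.137, edgeR). The share of all genes whose libraries separate in this way was not computed. VIM had 2819 to 3274 CPM at 20% O2 and 3266 to 4176 CPM at 3% O2, and was called with the GC trend removed (0.25, adjusted p = 0.00709, edgeR).

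Without Doxy, VIM rose at 3% O2, and SNAI2 and ZEB2 fell. Of all genes 25.8% changed in this comparison, 13.9% higher and 11.9% lower, and the medians were -0.08 for the members and 0.07 for all genes. VIM went from 2065 to 2176 CPM at 20% O2 to 2776 to 3328 CPM at 3% O2, by 0.54 (SE 0.10, adjusted p = 0.00242, edgeR). SNAI2 went from 188 to 195 CPM to 123 to 131 CPM, by -0.61 (SE 0.05, adjusted p = 2.46e-05, edgeR). Both were separated without overlap, and both stayed called in each of the 15 refits with other settings.

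ZEB2 went from 58.7 to 62.9 CPM to 51.0 to 55.0 CPM without Doxy, and its log2 fold change of -0.20 (SE 0.06, adjusted p = 0.0223, edgeR) was less firm. The labels state no pairing of the libraries, and the replicate numbers were taken as a possible pairing of these 2 conditions. With the replicate number as a block, ZEB2 had an adjusted p of 0.0173 in the 6 libraries compared and of 0.0550 in all 12 (edgeR). With the GC trend removed the value was -0.07 (adjusted p = 0.279), and with the block as well -0.07 (adjusted p = 0.229, edgeR). The call was also lost without 20% O2 wo Doxy replicate 1 or 3 and without 3% O2 wo Doxy replicate 2 or 3. FN1 had 846 to 854 CPM at 20% O2 and 802 to 812 CPM at 3% O2, which did not overlap, yet the change of -0.08 (SE 0.06) was not called. CDH2 (-0.09), ZEB1 (-0.05), SNAI1 (-0.16), TWIST1 (0.28) and TWIST2 (0.12) overlapped between the 2 conditions.

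These comparisons share conditions, and the values of a gene are therefore best read side by side. SNAI2 was lowest at 3% O2 + Doxy (99.4 ± 0.660 CPM, SD, n = 3), higher at 20% O2 + Doxy (112 ± 6.44) and 3% O2 wo Doxy (126 ± 4.80), and highest at 20% O2 wo Doxy (192 ± 3.86). ZEB2 followed the same order, with 43.1 ± 1.92, 45.2 ± 2.01, 53.1 ± 2.01 and 61.2 ± 2.19 CPM. VIM had the reverse extremes, with its lowest mean at 20% O2 wo Doxy (2124 ± 55.7) and its highest at 3% O2 + Doxy (3629 ± 482). Of the ZEB2 levels, those of the 2 conditions with Doxy overlapped, and the VIM levels of the 3 conditions other than 20% O2 wo Doxy overlapped with each other.

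The genes with the pattern most like a member over the 12 libraries were taken as those with the smallest root mean square difference of centred log2 CPM, among 10764 genes. For SNAI2 these were CASP4 (0.0580), RCAN1 (0.0691) and CD55 (0.0799). For VIM they were SUFU (0.0501), EXTL3 (0.0702) and COL4A1 (0.0712), and for ZEB2 PIGL (0.0480), EIF4A2 (0.0541) and DR1 (0.0542). The 12 libraries share 4 conditions, so the likeness is a description.

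The other genes of the system were read in 10 lists compiled from general knowledge, of 13 to 24 genes each. Earlier results of these data were known when the lists were chosen. Their counts beside the shares of all genes are therefore a description and not a test of the lists. On the epithelial side, FDX2 loss at 20% O2 gave no common direction. The shares of all genes to read these counts against were 17.6% higher and 17.7% lower. Of 9 tested genes of cadherin partners and the adherens junction, 1 rose and 4 fell (median -0.12). CTNNB1, the beta-catenin that links cadherins to the cytoskeleton, fell from 333 ± 8.01 to 232 ± 6.16 CPM (-0.52, adjusted p = 5.68e-06, edgeR), with NECTIN1 (-0.50), a nectin of the same junction. CDH6, a type II cadherin, rose from 2.45 ± 0.204 to 4.64 ± 0.148 CPM (0.92). CTNNA1 (0.06) and CTNND1 (-0.12), the other catenins, were not called. At 3% O2 CTNNB1 fell less (-0.19, adjusted p = 0.0218), and the difference of the responses was called (0.34, adjusted p = 0.00787, edgeR). Tight junction and desmosome genes gave 1 higher and 2 lower of 11 tested at 20% O2, among them the plakophilin PKP3 (-1.45). Of 6 tested genes of the epithelial surface and keratins, 2 rose, with CD24 at 0.77, and 2 fell, KRT18 (-0.55) and KRT7 (-0.40).

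Of the epithelial regulators, TP63 (0.84) and KLF5 (0.42) rose at 20% O2 and none fell. ESRP1, the splicing factor of epithelial isoforms, passed the filter on low counts only through the condition in which it was high, so its values are a description and no test is given. Of the other tested list genes, CLDN4, CLDN6, FOXC2 and ID2 also passed through 1 condition, and none of these was called under FDX2 loss. It had 0 counts in each library of 20% O2 + Doxy, 16, 26 and 18 at 20% O2 wo Doxy, 1, 0 and 0 at 3% O2 + Doxy and 0, 2 and 0 at 3% O2 wo Doxy. Measured against a floor of 3 counts per library, its level at 20% O2 wo Doxy was at least 6.56-fold higher than with Doxy. The counts were few, 0.640 ± 0.161 CPM. A further 7 genes of this list, GRHL2, GRHL3, OVOL1, OVOL2, ELF3, CDX1 and MIR200CHG, stayed at 3 counts or fewer throughout.

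On the mesenchymal side, 6 of 17 tested cytoskeletal and surface genes rose at 20% O2 and 3 fell (median 0.11), against 17.6% and 17.7% of all genes. CNN1, a calponin of contractile cells, rose by 1.66 and PDGFRA, a growth factor receptor of mesenchymal cells, by 1.40, whereas ENG (-0.78), a TGF-beta co-receptor, and CNN2 (-0.49) fell. At 3% O2 4 rose and none fell, against 4.20% and 3.11% of all genes, with CNN1 at 0.94 and S100A4 at 0.94. Both of these were low genes, CNN1 going from 0.710 ± 0.114 to 1.36 ± 0.330 CPM and S100A4 from 0.995 ± 0.118 to 1.91 ± 0.639. CNN1 was low at 20% O2 as well (0.840 ± 0.173 CPM with Doxy and 2.65 ± 0.239 without). Among fibronectin receptors and assembly genes, 3 of 13 rose and 5 fell (median 0.02): the fibrillin FBN1 (1.00) and the integrin ITGB3 (0.87) against TGM2 (-0.91), a transglutaminase that crosslinks fibronectin, and ITGB8 (-0.79). ITGA5 (-0.04) and ITGB1 (0.03), which form the main fibronectin receptor, were not called. FBN1 rose at 3% O2 as well (0.68).

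Corepressors of the transcription factors were mostly lower at 20% O2 wo Doxy. Of 15 genes for SNAIL and ZEB corepressors, all of them tested, 9 fell and 1 rose (median -0.31), against 17.7% and 17.6% of all genes. SMARCA4 (-0.57), a chromatin remodeller, and EZH2 (-0.50), the Polycomb methyltransferase, were lower, and AJUBA (0.18), a LIM protein that binds SNAIL, was higher. At 3% O2 SIN3A (-0.29) alone of the 15 fell, against 3.11% of all genes. Of 16 other factors and bHLH partners, 10 were not called, 1 rose and 5 fell (median -0.07). TCF4, an E protein that dimerizes with TWIST factors, rose from 10.8 ± 1.04 to 14.6 ± 0.674 CPM (0.43), while HAND2 (-0.81), ID1 (-0.55) and ID3 (-0.28), of which the ID proteins sequester E proteins, fell. TCF3 (-0.51) and TCF12 (0.10) were not called. HAND2 was one of 2 genes of this list with a called difference between the oxygen levels (0.76, adjusted p = 0.0429, edgeR).

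Genes of SNAIL turnover gave 2 higher and 4 lower of 13, against 17.6% and 17.7% of all genes, among them the ligase subunits FBXL5 (0.23) and FBXL14 (-0.64), the deubiquitinase USP27X (-0.34), and GSK3B (0.25), the kinase that marks SNAIL for degradation. At 3% O2 none of the 13 was called, against 7.31% of all genes. TGF-beta signalling, a main inducer of SNAIL and ZEB genes, gave 4 higher and 2 lower of 17, a total share equal to the 35.3% of all genes. TGIF1 (0.73) and SKIL (0.66), both repressors of SMAD proteins, rose, and SKI (-0.51), another such repressor, and SMURF2 (-0.31) fell. At 3% O2, TGFB2 (0.25) alone of the 17 rose, against 4.20% of all genes. The responses of TGIF1 (-0.61, adjusted p = 0.00158) and SKIL (-0.67, adjusted p = 0.0220, edgeR) were smaller at 3% O2. In the comparison of oxygen with Doxy, 3 genes over the 10 lists were called (NT5E 0.28, SDC4 0.28 and PRRX1 -0.60), against 2.02% of all genes.

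Without Doxy, several of these genes also differed between the oxygen levels. The condition 20% O2 wo Doxy is shared with the comparison of FDX2 loss at 20% O2, so opposite signs in the 2 comparisons are no separate result. NECTIN1 (0.58), PKP3 (2.08), KRT18 (0.42), ENG (0.86), TGM2 (0.66), HAND2 (0.76), ID1 (0.55), FBXL14 (0.66) and SKI (0.60) were higher at 3% O2, and KLF5 (-0.46), CNN1 (-0.95), PDGFRA (-0.35), FBN1 (-0.35), SKIL (-0.91) and TGIF1 (-0.43) lower. The 9 higher genes have 55.1% to 66.7% GC and the 6 lower ones, apart from the GC-rich CNN1, 33.4% to 53.1%, and each library of 20% O2 wo Doxy had a lower GC trend than each of 3% O2 wo Doxy. The part of this trend in the values was not tested beyond its removal. With the trend removed all 15 stayed called with the same sign, KLF5 and PDGFRA not when the replicate block was added, and the values of the 9 higher genes shrank, NECTIN1 to 0.29, KRT18 to 0.13, SKI to 0.32 and PKP3 to 1.63. Of the corepressors 4 of 15 rose, with LOXL2 (0.56) and CTBP1 (0.52), a corepressor that ZEB proteins bind, and none fell. In the adherens junction list 4 of 9 rose, among them CTNNB1 (0.29), and in the mesenchymal list 7 of 17 rose and 3 fell. The background was 13.9% of all genes higher and 11.9% lower.

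With the GC trend removed, more list genes were called, and so were more of all 16891 genes. Over all genes, 4430 were then higher and 3444 lower at 20% O2, in place of 2971 and 2990. At 3% O2 they were 1779 and 1454, in place of 709 and 526. For oxygen without Doxy they were 2921 and 2709, in place of 2348 and 2012. The list counts below are to be read against these. At 20% O2 the corepressors gave 2 higher and 10 lower of 15 and the mesenchymal list 8 higher and 5 lower of 17. There ID3 lost its call (-0.13, adjusted p = 0.108, edgeR) and TCF3 gained one (-0.27, adjusted p = 0.00369, edgeR). At 3% O2 the counts moved most, to 1 higher and 6 lower corepressors, 5 higher TGF-beta genes, 2 higher genes of SNAIL turnover and 6 higher and 2 lower mesenchymal genes. For oxygen without Doxy the corepressors became 7 higher of 15 and the genes of SNAIL turnover 5 of 13.

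Many calls near the threshold also depended on single libraries, with the direction kept. At 20% O2, NECTIN1, CD24, AJUBA, ID3, FBXL5 and SKI were lost without any one of at least 5 of the 6 libraries, SMARCA4 and FBXL14 without any one of 4, and KLF5, ID1, USP27X, CNN2 and GSK3B without at least 1. The corepressors called lower there numbered 6 to 8 when a library was left out, 6 without any one library of 20% O2 wo Doxy, and the genes of SNAIL turnover called numbered 1 to 5, with 1 left without 20% O2 wo Doxy replicate 3, 3 without replicate 1 and 4 without replicate 2 of that condition or 20% O2 + Doxy replicate 2. At 3% O2 the mesenchymal genes called numbered 1 or 2 without any one library, in place of 4. The calls of CTNNB1, CNN1 and S100A4 were lost without any one of 5 libraries, that of TGFB2 without any one of 4 and that of SIN3A without 3% O2 wo Doxy replicate 2. For oxygen with Doxy, NT5E was lost without any one of 3 libraries and SDC4 without any one of 4, and PRRX1 was kept. For oxygen without Doxy, NECTIN1, KRT18, ID1, FBXL14, SKI and CTBP1 were lost without any one library other than 3% O2 wo Doxy replicate 1, PDGFRA and KLF5 in 4 and 3 refits, and ENG without 3% O2 wo Doxy replicate 2. For the interaction, HAND2 was lost in 10 of the 12 refits without a library, SKIL in 6 and CTNNB1 without 20% O2 wo Doxy replicate 3, whereas TGIF1 was kept in all 12.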

How the data were processed

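Per the labels, poly(A) RNA of FDX2-iKO ES2 cells was converted with random hexamers into 12 libraries. The authors aligned reads with STAR to GRCh38, counted them per gene with featureCounts and deposited raw counts; versions, annotation, strand setting and treatment of multiply aligned reads are not given in the sources used here. The identifiers match GENCODE release 29, which gave symbols, positions, exon overlaps and transcript GC content. The counts were fitted with edgeR 4.0.16 under R 4.3.3 (DESeq2 1.42.0 as an alternative tool). filterByExpr (minimum count 10, total 15) kept 16891 of 32966 genes with a count, among them 9 of the 10 members. TMM factors lay between 0.940 and 1.07. The 12 libraries entered one quasi-likelihood model with a mean per condition, which left 8 residual degrees of freedom, and log2 fold changes and standard errors are its estimates. CPM are TMM-scaled, with SD over 3 libraries, and for levels compared between genes were divided by the length of the APPRIS principal transcript. Precision is limited by replicate spread (common coefficient of variation 16.3%) and, for SNAI1 and ESRP1, by counting. The spread was unequal between conditions, whereas the model shares one estimate over all 12 libraries. The median chi-square of counts per degree of freedom within a condition was 3.90 at 20% O2 + Doxy and 1.30 at 20% O2 wo Doxy. It was 3.61 at 3% O2 + Doxy and 3.02 at 3% O2 wo Doxy. A floor is 3 counts per library and covers counting error only. The steps were tested on simulated data.

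Deviations of libraries from their condition means were correlated over genes. Libraries with the same replicate number had correlations of 0.190 to 0.497 between 20% and 3% O2 without Doxy. Those with different numbers had -0.473 to 0.231 there, so these ranges overlapped. Every other pair of conditions had at least 1 same-number correlation below 0.1. The labels state no pairing, and the numbers were taken as a possible pairing in the comparison of oxygen without Doxy alone. GC correction (lowess, span 0.3, of log2 CPM on transcript GC content, as an offset) was added after the data were seen. Members and lists were chosen with earlier results of these data known. All 10 members are named. List genes are named when called, at 1 CPM or more and without overlap of libraries, at most 2 per direction and list, besides direct partners of members, and some list genes are not reported here.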

Additional observations from a re-analysis of the deposited data

Results flagged for a closer look

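A test of the difference itself separated the SNAI2 responses at the 2 oxygen levels: the log2 fold change at 3% O2 minus that at 20% O2 was -0.44 (SE 0.07, adjusted p = 0.00582, edgeR's quasi-likelihood test). At either oxygen level, SNAI2 was higher in each of the 3 libraries without Doxy than in each of those with it. The rise was 0.78 at 20% O2 and 0.34 at 3% O2. The difference stayed called in all 18 refits with other settings, between -0.48 and -0.39. No other member met this criterion. With 3 libraries per condition, single libraries were not screened as outliers.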

How the results depend on the processing

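At 20% O2, the 5 member calls under FDX2 loss were made in all 14 refits, and 1 (SNAI2) passed a 1.5-fold minimum. At 3% O2, the 3 calls became 1 at an adjusted p under 0.01, 0 with a 1.5-fold minimum, 1 with no filter and 0 in a fit to only the libraries compared, with or without the replicate block; leaving out a library gave 2 to 4. In the comparison of oxygen with Doxy, DESeq2's Wald test gave 1 call, and leaving out a library 0. Without Doxy, the 3 calls became 1 with a 1.5-fold minimum and 2 to 3 without a library. For the interaction, 1 call became 0 with a 1.5-fold minimum and 1 to 2 without a library, 2 without 3% O2 + Doxy replicate 3. The GC correction gave 5 calls (4 higher, 1 lower) at 3% O2, 1 for oxygen with Doxy and 2 for the interaction. The cause was not tested. Counts over all genes moved too: FDX2 loss at 3% O2 gave 1235 calls, 3233 with the GC correction and 1 with the block in the 6 libraries.

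With the replicate block in all 12 libraries, CDH2 at 3% O2 (0.26, adjusted p = 0.0807) and ZEB2 for oxygen without Doxy (-0.20, adjusted p = 0.0550) lost their calls in edgeR. For oxygen without Doxy the numbers were taken as a possible pairing. There the blocked fit to the 6 libraries kept VIM (0.52), SNAI2 (-0.63) and ZEB2 (-0.22) called. CDH2 at 3% O2 was also lost with DESeq2's size factors (adjusted p = 0.0524) and with a minimum of 10 counts in every library (adjusted p = 0.0569).

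Changes of sign were confined to uncalled values. With the GC correction these were SNAI1 under FDX2 loss at 20% O2 (0.0684) and in the interaction (-0.0808), and, for oxygen without Doxy, ZEB1 (0.0751, 0.0786 with the block) and TWIST2 (-0.0839, -0.0890 with the block). SNAI1 at 3% O2 was 0.00882 with the block. Without a library, SNAI1 ran from -0.37 to 0.26 at 20% O2, -0.24 to 0.41 at 3% O2, -0.70 to 0.0942 and -0.40 to 0.0629 for oxygen with and without Doxy, and -0.27 to 0.54 for the interaction. TWIST1 ran from -0.23 to 0.12 and CDH2 from -0.11 to 0.00808 for oxygen with Doxy, and for the interaction CDH2 from -0.10 to 0.00805 and ZEB1 from -0.0322 to 0.10. Of 1020 counts for the gene lists and marker lists under other settings, 330 differed by over 1.5 times from the reported count, 136 of them without a library and 32 with the GC correction. Depth limits CDH1 and SNAI1.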
